A study of Mus musculus with 6 samples.

Results

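The 10 genes described here bring lipid into the hepatocyte and store it there, and were compared between PiZ and wild-type mouse livers: Cd36, Vldlr, Lpl, Fabp1, Plin2, Cidea, Cidec, Mogat1, Lpin1 and Lpin2. They were read by all 20 probe sets (groups of short probes that together read one transcript) whose annotation named exactly 1 of these genes, out of 22626 probe sets and 12393 singly named genes on the array. PiZ mice express the human Z variant of alpha-1 antitrypsin from a transgene, a serpin that misfolds and is retained in the endoplasmic reticulum of hepatocytes. Livers of 3 PiZ mice and 3 wild-type mice, all 6 weeks old and of C57BL/6 strain, were each measured on 1 one-colour array, and the comparison asks how the transgene changes liver gene expression. The promoter of the transgene, the sex of the animals, and their feeding state and time of day at collection are not stated. Values are log2 intensities, a difference is PiZ minus wild-type on that scale (a difference of 1 is a doubling), and SE is its standard error. Each group had n = 3, except in fits that left arrays out. A gene is said to rise or fall where the limma p-value, adjusted by Benjamini-Hochberg over all 22626 probe sets, is below 0.05. Where an unadjusted limma p below 0.05 is counted, the background is high. Of all 12393 genes, each by its brightest probe set, 2565 were higher and 2345 lower by that limit.

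A hepatocyte takes up fatty acids from the blood through membrane proteins and lipoprotein receptors, carries them in the cytosol on binding proteins, and joins them to glycerol as triglyceride. The triglyceride is either secreted in very low density lipoprotein or kept in lipid droplets, whose surface is coated by perilipins and CIDE proteins. Several of these genes are low in a lean liver and are known to be switched on in fatty liver, often through the nuclear receptor PPAR gamma, while others are targets of PPAR alpha, the fasting receptor of the hepatocyte.

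Among these 10 genes the rises were in uptake and synthesis genes. None of the droplet coat genes among them (Plin2, Cidea and Cidec) passed the test, while Plin5, a perilipin outside the 10, rose. All 3 probe sets of Cd36, 3 of 4 of Vldlr, all 3 of Lpin2 and the single one of Mogat1 rose, and 1 of 2 of Fabp1 fell. In all, 11 of the 20 probe sets changed, where 19.1% of all probe sets did. Of these 10 rose, against a background of 8.93%, and 1 fell, against 10.2%. Taking the brightest probe set of each gene, 4 of the 10 genes rose and 1 fell. The median difference was 0.76 over the 20 and 0.08 over all probe sets. The groups did not overlap in 16 of the 20, against 42.0% of all probe sets. Probe sets of one gene read the same RNA and are not independent. Centring the arrays on 8 reference genes raised every difference by 0.23, and then 13 of the 20 rose and 0 fell, while of all probe sets called the share that rose went from 46.6% to 68.5%. Without wild-type replicate 1, 2 or 3 there were 5, 5 and 6 rises and 0 falls, and without PiZ replicate 2 or 3 there were 6 rises and 0 falls each.

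The arrays differed in RNA quality in a way that bears on every value below. The 3′ minus 5′ difference of the Gapdh control transcript, which is larger when RNA is shortened, was 1.49 to 2.06 in wild-type and 1.99 in PiZ replicate 1, but 4.39 and 4.01 in PiZ replicates 2 and 3. PiZ replicate 1 alone against wild-type gave a member median of 0.56, against 0.01 over all probe sets. That fit holds 1 PiZ array, so its spread comes from the wild-type arrays alone, and its calls do not reflect variation among PiZ livers. PiZ replicates 2 and 3 gave 0.96 (0.11 over all probe sets), with 13 members higher and 3 lower. In that fit 5734 of all 22626 probe sets were higher and 4813 lower, against 2020 and 2311 with all arrays. With the 3′ minus 5′ value of each array added to the fit, 6 members were higher and 1 lower, and of all probe sets 1308 and 1504. The part of RNA quality in the differences was not tested beyond these values. Hepatocyte markers were high on all arrays: of 6, Tat alone rose (1.12, SE 0.28) and 0 fell (2 were lower at an unadjusted limma p below 0.05). Their summed linear intensity was 130869 to 132369 in wild-type and 117241 to 130401 in PiZ.

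**Figure D1:**
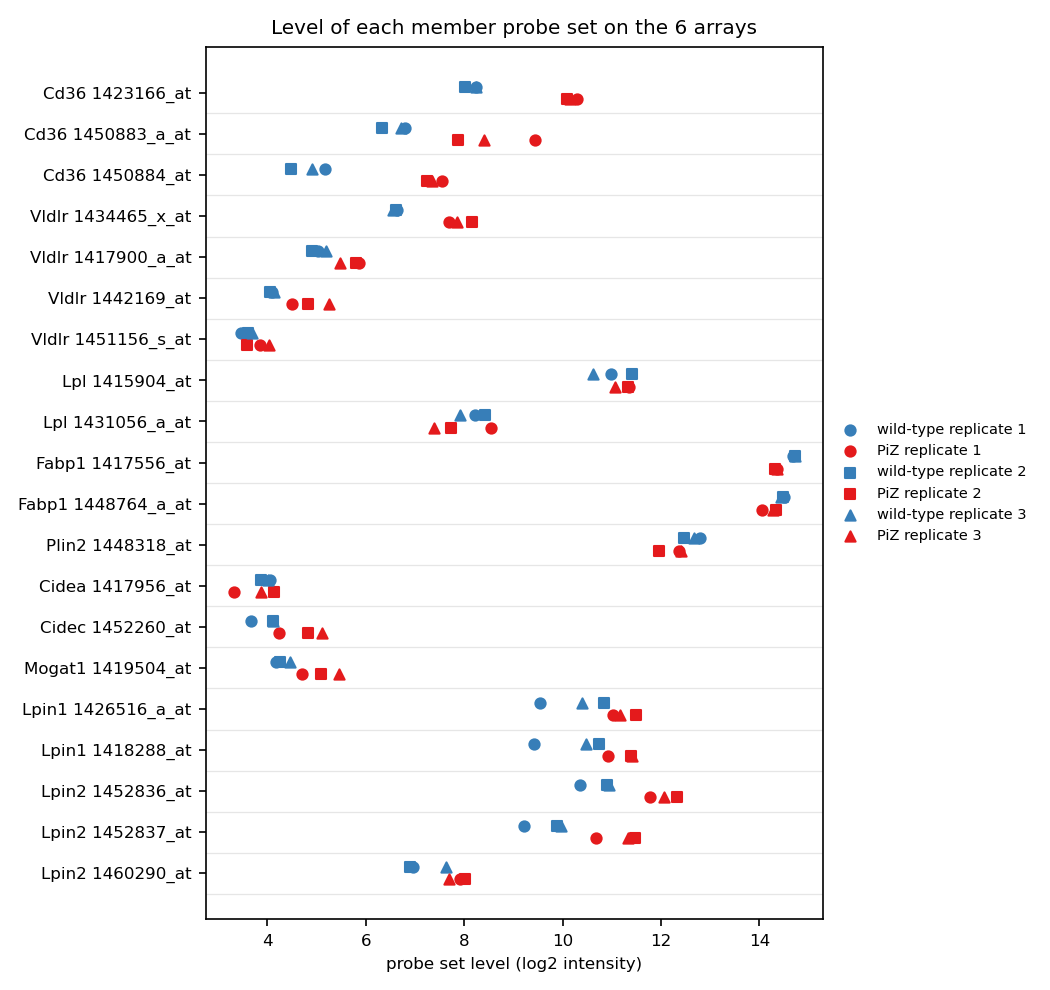
Level of each member probe set (log2 intensity, horizontal axis) on the 3 wild-type arrays (blue) and the 3 PiZ arrays (red), with the replicate number as the symbol. The Cd36 probe sets show the widest gap between the groups, and the 2 Lpin1 probe sets show the low wild-type replicate 1.

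Cd36, a membrane protein that takes up long-chain fatty acids and is a marker of fatty liver in mice, rose 3.87-fold to 5.77-fold. Its brightest probe set, 1423166_at, read 8.24, 8.01 and 8.23 in wild-type and 10.29, 10.09 and 10.15 in PiZ. Every PiZ array lay well above every wild-type array, and the replicates lay close together (SD 0.13 and 0.10). The difference was 2.02 (SE 0.12, a 4.05-fold rise, limma adjusted p = 0.00022). Probe set 1450884_at read 5.17, 4.48 and 4.90 in wild-type and 7.54, 7.24 and 7.35 in PiZ, a rise of 2.53 (SE 0.19). Probe set 1450883_a_at read 6.80, 6.33 and 6.72 in wild-type and 9.44, 7.87 and 8.39 in PiZ, a rise of 1.95 (SE 0.37). The last was highest in PiZ replicate 1, the PiZ array with the least shortened RNA, and its groups did not overlap either.

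Among all 22626 differences, the 3 Cd36 probe sets held ranks 55, 89 and 93 from the top. In PiZ replicate 1 alone they stood 2.13, 2.83 and 2.69 above wild-type (1423166_at, 1450883_a_at, 1450884_at). The calls of 1423166_at and 1450884_at held in all 16 and 15 alternative fits, respectively. That of 1450883_a_at was lost without wild-type replicate 1, 2 or 3 (2.04, 1.81 and 2.01, limma adjusted p = 0.05036, 0.05804 and 0.05557).

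Cd36 is also made by macrophages and endothelial cells, and adipocytes express several of the 10 genes, so the markers of these cells are given beside it. Of 7 macrophage markers, 3 rose and 0 fell: the Kupffer cell genes Clec4f (0.64, SE 0.11), Marco (0.97, SE 0.16) and Cd5l (0.67, SE 0.12). The others did not pass and lay on both sides of no change. They were Csf1r (0.29, SE 0.14), Cd68 (0.07, SE 0.14), Adgre1 (-0.10, SE 0.25) and Lyz2 (-0.23, SE 0.21). The summed linear intensity of the 7 was 6309 to 6528 in wild-type and 7942 to 9738 in PiZ. Of 6 endothelial markers 0 changed (1 higher at an unadjusted limma p below 0.05), with sums of 2370 to 2452 and 2076 to 2370. Of 5 measured adipocyte markers 0 changed, while 3 were higher at an unadjusted limma p below 0.05 (Fabp4, Retn and Lep, the latter 2 dim). Their sums were 365 to 457 in wild-type and 481 to 590 in PiZ, mostly from Fabp4, and Adipoq read 3.06 to 3.29 on all arrays. Each marker was read by its brightest probe set, and the 4 of Fabp4 ran from 0.55 (the brightest) to 1.11. The part of these cells in the rise of Cd36 was not tested, and in whole liver a change in the number of cells of a type cannot be told apart from a change in RNA per cell.

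The promoter of Cd36, the gene with the largest rise, is shown with that of Fabp1, the gene that fell, because both are known targets of PPAR receptors. Sequences are RefSeq's for the GRCm38.p6 build, the 250 bases before the start site, 5′ to 3′ along the gene, and the capitals mark matches to AGGTCA, the half-site of the PPAR direct repeat, on either strand (TGACCT when read on the gene's strand). No other motif overlaps these matches. The Cd36 window lies at chr5:17835897-17836146 on the minus strand and the Fabp1 window at chr6:71199629-71199878 on the plus strand.
Cd36: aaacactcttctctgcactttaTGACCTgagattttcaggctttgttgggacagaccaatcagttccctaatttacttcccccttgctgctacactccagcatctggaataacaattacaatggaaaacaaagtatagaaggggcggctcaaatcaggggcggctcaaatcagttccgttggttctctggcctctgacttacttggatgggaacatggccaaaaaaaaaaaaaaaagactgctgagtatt
Fabp1: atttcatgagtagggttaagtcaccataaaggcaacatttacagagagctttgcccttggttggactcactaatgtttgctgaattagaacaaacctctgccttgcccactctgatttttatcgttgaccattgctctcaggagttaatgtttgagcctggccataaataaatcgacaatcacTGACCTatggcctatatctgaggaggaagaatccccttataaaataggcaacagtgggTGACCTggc
The window of Cd36 held 1 half-site and that of Fabp1 held 2. Of all 32851 windows in the table, 14.0% held at least 1. Among the 12 windows of the members, which cover 8 of the 10 genes, 4 held one: those of Cd36, Fabp1, Lpin1 and Plin2. No window is shown for Cidea and Lpl. The half-site stood before genes that rose, fell and did not pass alike. Only the single half-site was searched, so these counts do not tell which windows hold the full repeat.

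Vldlr, the receptor through which cells take up triglyceride-rich lipoproteins, rose in 3 of its 4 probe sets. The brightest, 1434465_x_at, read 6.64, 6.62 and 6.55 in wild-type and 7.69, 8.17 and 7.85 in PiZ. The wild-type arrays lay close together (SD 0.04) and every PiZ array was far above them. The difference was 1.30 (SE 0.14, a 2.46-fold rise, limma adjusted p = 0.00239), and the call held in all 16 alternative fits. The suffix _x_ marks a probe set some of whose probes can match other transcripts, so the weaker probe sets matter here.

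Probe set 1417900_a_at of Vldlr read 5.04, 4.92 and 5.19 in wild-type and 5.87, 5.81 and 5.48 in PiZ (a rise of 0.67, SE 0.14). Probe set 1442169_at read 4.09, 4.06 and 4.13 in wild-type and 4.50, 4.82 and 5.26 in PiZ (a rise of 0.76, SE 0.19). In both, the groups did not overlap, although both probe sets are dim. The fourth, 1451156_s_at, read 3.47, 3.60 and 3.68 in wild-type and 3.85, 3.58 and 4.04 in PiZ. It lay among the dimmest 14.0% of all probe sets, its groups overlapped, and its difference of 0.24 had a 95% interval from -0.10 to 0.57.

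The Vldlr calls differed in firmness. That of 1417900_a_at was lost after cyclic loess (0.54), without wild-type replicate 1, 2 or 3 (0.66, 0.60 and 0.74) and without PiZ replicate 2 (0.62). That of 1442169_at was lost without wild-type replicate 1, 2 or 3 (0.76, 0.75 and 0.78), without PiZ replicate 2 or 3 (0.78 and 0.57), in PiZ replicate 1 alone (0.41) and with the 3′ minus 5′ covariate (0.44, limma adjusted p = 0.21). In PiZ replicate 1 alone the brightest probe set stood 1.09 above wild-type.

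Among the members, the CEBP-ATF response element, the site of the stress factors ATF4 and CHOP, occurred before a start site of Vldlr and of Lpin2, both of which rose. The motif searched was TGATGNAA on both strands, and its matches are in capitals within 30 bases of RefSeq sequence (GRCm38.p6). The Vldlr site lies at chr19:27216809-27216838, plus strand, before the second of 2 listed start sites, with the match at positions -200 to -193 and on the opposite strand. The Lpin2 site lies at chr17:71204449-71204478, plus strand, before the third of 3 listed start sites, with the match at positions -194 to -187.
Vldlr: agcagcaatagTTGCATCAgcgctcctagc
Lpin2: cctgttctgtgTGATGGAAgctgtagttga
The motif stood in 2 of the 12 member windows and in 3.45% of all windows. It was in none of the windows of Cd36 or Mogat1, which rose as well. The core of the ER stress element, CCACG, stood in 6 of the 12 windows (Cidec, Lpin1, Lpin2 and Plin2) and in 28.3% of all windows. The HNF4A motif CAAAGTCCA stood in 0 of the 12 and in 0.384% of all windows. A match of letters does not show that a factor binds there.

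Lpl, the lipase that frees fatty acids from circulating lipoproteins, did not pass in either probe set. Probe set 1415904_at read 10.98, 11.42 and 10.61 in wild-type and 11.35, 11.34 and 11.06 in PiZ, a difference of 0.25 with a 95% interval from -0.24 to 0.73. Probe set 1431056_a_at read 8.22, 8.41 and 7.91 in wild-type and 8.54, 7.74 and 7.39 in PiZ, a difference of -0.29 with an interval from -0.97 to 0.38. The groups overlapped in both, and the PiZ arrays of 1431056_a_at split as the RNA quality did. PiZ replicate 1 stood 0.36 above wild-type there, and without that array the difference was -0.62 (limma adjusted p = 0.02).

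Fabp1, the abundant liver protein that carries fatty acids through the cytosol, fell slightly in 1 of 2 probe sets. Probe set 1417556_at read 14.69, 14.71 and 14.71 in wild-type and 14.35, 14.32 and 14.36 in PiZ. The replicates lay very close together (SD 0.015 and 0.021) and the groups did not overlap, with a fall of 0.36 on the log2 scale (SE 0.10, limma adjusted p = 0.0391), or 1.28-fold. Probe set 1448764_a_at read 14.49, 14.49 and 14.44 in wild-type and 14.05, 14.33 and 14.28 in PiZ, a difference of -0.25 (adjusted p = 0.155) with no overlap. Both lie at the very top of the array's range, where array intensities are known to be compressed. The call of 1417556_at held in 5 of 16 alternatives. It was lost after cyclic loess (-0.23) or a further quantile normalization (-0.28), with the 3′ minus 5′ covariate (-0.35), in PiZ replicate 1 alone (-0.35), with reference gene centring (-0.13), without wild-type replicate 1, 2 or 3 (-0.37, -0.36 and -0.36) and without PiZ replicate 2 or 3 (-0.35 and -0.37).

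**Figure D2:**
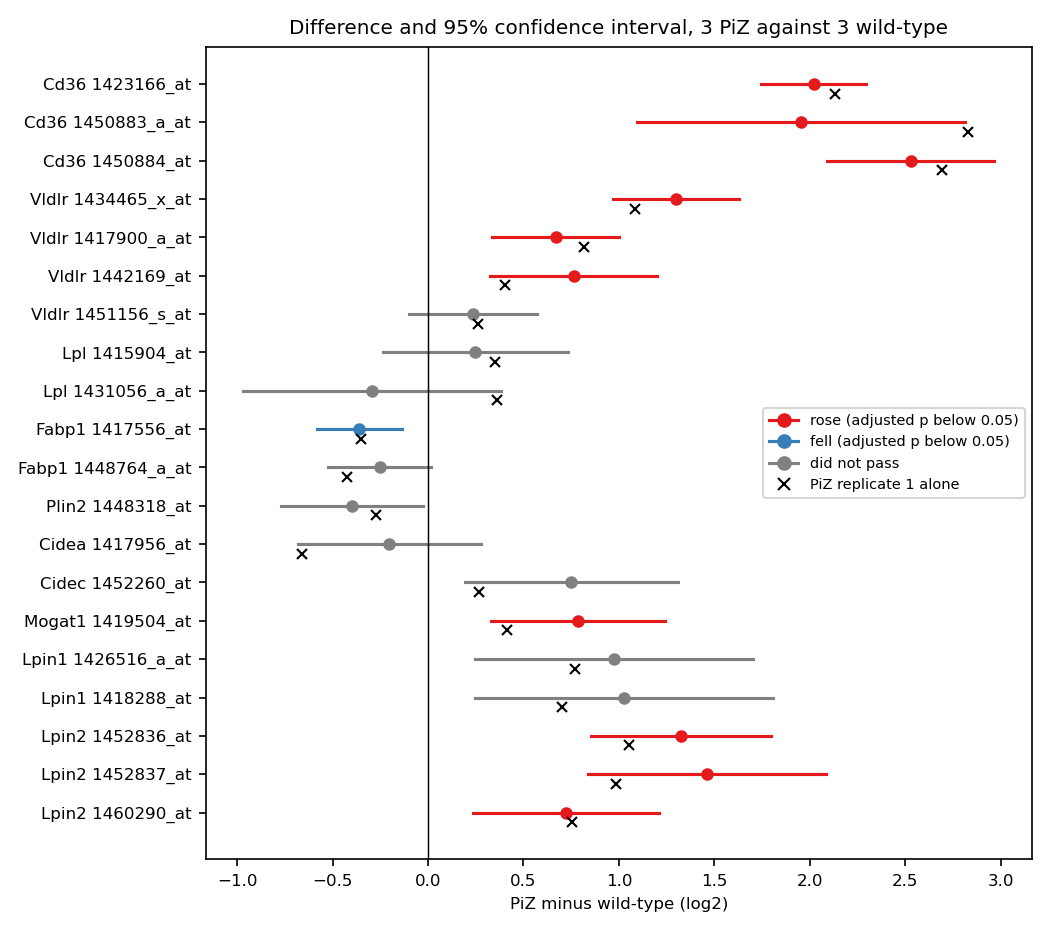
Difference of each member probe set (PiZ minus wild-type, log2) with its 95% confidence interval from limma; crosses give PiZ replicate 1 alone against the wild-type arrays. Red intervals (10) rose, the blue one (1) fell, and the 9 grey ones did not pass.

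Of the 3 member probe sets of droplet coat genes 0 passed limma's adjusted threshold, and 2 (Plin2 lower, Cidec higher) had an unadjusted p below 0.05. By the same unadjusted limma p, 4354 of all 22626 probe sets were higher and 4096 lower. Plin2 (adipophilin), the main perilipin of the liver and a usual correlate of its fat content, read 12.79, 12.47 and 12.67 in wild-type and 12.37, 11.95 and 12.41 in PiZ. PiZ replicates 1 and 3 lay just below the lowest wild-type array and PiZ replicate 2 further below. The difference was -0.40 (SE 0.16, limma adjusted p = 0.115), with a 95% interval from -0.77 to -0.03. Without PiZ replicate 1 the difference was -0.46 and passed (adjusted p = 0.0484).

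Cidec (Fsp27), which fuses lipid droplets and is a PPAR gamma target of fatty liver, read 3.67, 4.12 and 4.12 in wild-type and 4.24, 4.82 and 5.11 in PiZ. The groups did not overlap, but PiZ replicate 1 was only just above wild-type. The difference was 0.75 (SE 0.24, limma adjusted p = 0.0643). It was 0.27 in PiZ replicate 1 alone. It passed without that array (0.99, limma adjusted p = 0.0023), with array weights (1.01, adjusted p = 0.00194) and with reference gene centring (0.98, adjusted p = 0.0478). Cidea, a CIDE protein of brown fat that appears in fatty liver, read 4.05, 3.87 and 4.02 in wild-type and 3.32, 4.14 and 3.87 in PiZ. Its groups overlapped around a difference of -0.20 (95% interval from -0.68 to 0.28), which turned to 0.02 with reference gene centring or without PiZ replicate 1. The difference was -0.66 in PiZ replicate 1 alone, and it passed as lower with the 3′ minus 5′ covariate (-0.66, limma adjusted p = 0.0462). Both CIDE probe sets were dim (percentiles 24.7 for Cidec and 17.1 for Cidea among all probe sets), and signal cannot be told from background in these files.

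Mogat1, the enzyme that adds a fatty acid to monoacylglycerol and is known to rise in fatty liver, rose from a dim level. It read 4.17, 4.25 and 4.47 in wild-type and 4.71, 5.09 and 5.45 in PiZ, with no overlap. The difference was 0.79 (SE 0.19, limma adjusted p = 0.0316). PiZ replicate 1 was again the lowest PiZ array, and alone it stood 0.41 above wild-type. The call of Mogat1 was lost in PiZ replicate 1 alone and with the 3′ minus 5′ covariate (0.44, limma adjusted p = 0.221). It was also lost without wild-type replicate 1, 2 or 3 (0.72, 0.76 and 0.87) and without PiZ replicate 2 or 3 (0.78 and 0.60).

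The lipins turn phosphatidic acid into diacylglycerol, the step before triglyceride, and can also act as coregulators in the nucleus. Lpin2, the main lipin of the liver, rose in all 3 probe sets. Probe set 1452836_at read 10.36, 10.89 and 10.95 in wild-type and 11.79, 12.32 and 12.07 in PiZ, and every PiZ array was above every wild-type array. The difference was 1.32 (SE 0.20, a 2.5-fold rise, limma adjusted p = 0.00692), and the call held in all 16 alternative fits. Probe set 1452837_at read 9.23, 9.88 and 9.98 in wild-type and 10.68, 11.47 and 11.32 in PiZ, a rise of 1.46 (SE 0.27). Probe set 1460290_at read 6.95, 6.90 and 7.63 in wild-type and 7.92, 8.03 and 7.70 in PiZ, a rise of 0.72 (SE 0.21) at an adjusted p of 0.0497, just inside the threshold.

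In PiZ replicate 1 alone, the 3 Lpin2 probe sets stood 1.05, 0.98 and 0.76 above wild-type (1452836_at, 1452837_at, 1460290_at). The calls of 1452837_at and 1460290_at were lost in that fit. The call of 1452837_at was also lost with the 3′ minus 5′ covariate (0.91, limma adjusted p = 0.057) and without PiZ replicate 3 (1.38, adjusted p = 0.0535). That of 1460290_at was lost with that covariate as well (0.77, adjusted p = 0.134) and with eBayes trend and robust settings (adjusted p = 0.0522). It was further lost without wild-type replicate 1 or 2 (0.62 and 0.59) and without PiZ replicate 2 or 3 (0.65 and 0.81).

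Lpin1, a fasting-induced lipin, did not pass, and its wild-type arrays were far apart. Probe set 1426516_a_at read 9.53, 10.83 and 10.40 in wild-type and 11.03, 11.48 and 11.18 in PiZ. Probe set 1418288_at read 9.42, 10.75 and 10.47 in wild-type and 10.92, 11.39 and 11.41 in PiZ. In both probe sets wild-type replicate 1 was well below the other wild-type arrays, and the lowest PiZ array was just above the highest wild-type array. The differences were 0.97 (SE 0.31, limma adjusted p = 0.0663) and 1.03 (SE 0.33, adjusted p = 0.0685), with 95% intervals from 0.24 to 1.70 and from 0.25 to 1.81. Without wild-type replicate 1 they were 0.61 and 0.63, and without PiZ replicate 1 they were 1.07 and 1.19 and passed (adjusted p = 0.03 and 0.0227). Both also passed with reference gene centring (1.199 and 1.252) and with array weights (0.95 and 1.14).

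**Figure D3:**
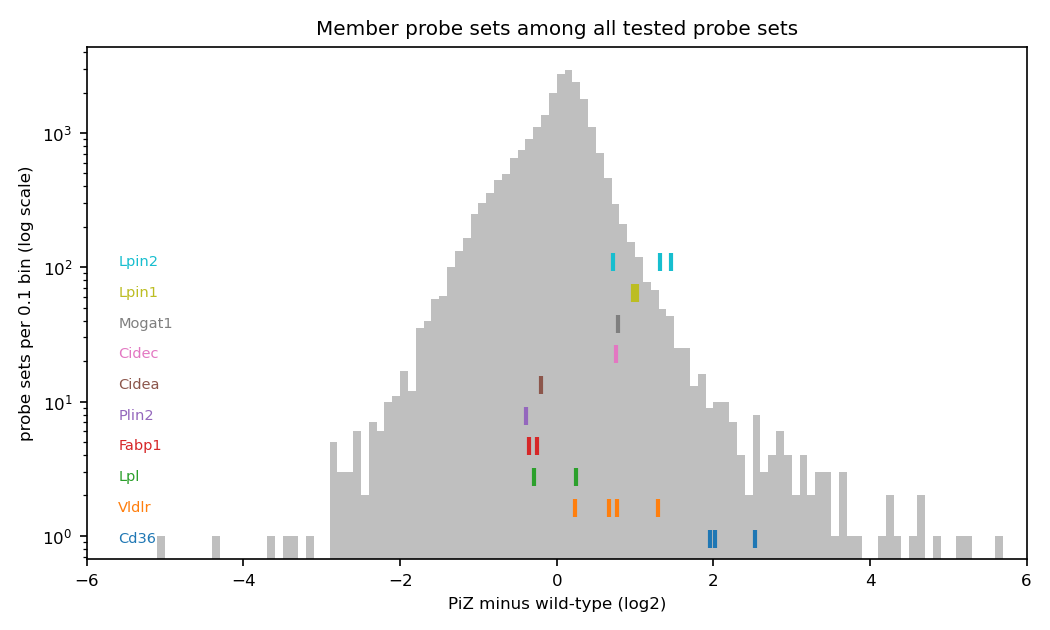
Distribution of the PiZ minus wild-type difference (log2, horizontal axis) over all 22626 probe sets (grey, log-scaled count per bin), with each member probe set as a coloured tick at the height of its gene's name (the height has no other meaning). The Cd36 ticks lie at 1.95 to 2.53 in the right tail, and those of Plin2, Fabp1 and Cidea lie between -0.40 and -0.20.

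The rest of the pathway was read over 111 further genes in 6 lists, 96 of which were measured, each by its brightest probe set. Of the 96, 33 changed, where 21.2% of all genes did by the same rule: 13 rose (background 9.99%) and 20 fell (11.2%). The groups did not overlap in 50 of the 96, against 44.8% of all genes. Their median difference was -0.06, against 0.08 over all genes. Among the genes that passed, rises outnumbered falls in the synthesis and regulator lists, and falls outnumbered rises in the other 4. Centred on the reference genes, 16 rose and 12 fell. The counts of rises and falls were 5 and 10, 3 and 12, and 4 and 9 without wild-type replicates 1, 2 and 3, then 25 and 33 without PiZ replicate 1 and 7 and 10 without PiZ replicate 3.

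Of 16 measured genes of fatty acid uptake and activation, 1 rose and 4 fell (median -0.11). The intestinal-type binding protein Fabp2 fell by 1.72 (SE 0.17, limma adjusted p = 0.00168), from 11.4, 11.4 and 11.5 to 10.1, 9.48 and 9.62. Fabp5 fell by 1.33 (SE 0.18) and its other probe set differed by -2.82. The fatty acid and bile acid ligase Slc27a5 fell by 0.97 (SE 0.21) and the transporter Slc27a2 by 0.51 (SE 0.10), while Slc27a4 rose by 0.67 (SE 0.13). Fabp1, Fabp2 and Fabp5 thus fell in their brightest probe set, and Fabp4, the binding protein of adipocytes and macrophages, read 0.55 (SE 0.16, limma adjusted p = 0.0503). The 4 probe sets of Fabp4 ran from 0.55 to 1.11, with the brightest the lowest of them. The calls of Fabp2 and Fabp5 held in all 16 alternatives. Those of Slc27a4 (0.66 to 0.69), Slc27a5 (-0.996 to -0.954) and Slc27a2 (-0.52 to -0.49) were lost without any one wild-type array, those of Slc27a5 (-0.82) and Slc27a2 (-0.48) also without PiZ replicate 3, and that of Slc27a5 without PiZ replicate 2 (-0.88). The 3′ minus 5′ covariate ended those of Slc27a4 (0.49) and Slc27a5 (-0.47), and reference gene centring that of Slc27a2 (-0.29).

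Of 13 measured genes of lipoprotein lipolysis and lipoprotein receptors, 1 rose and 4 fell (median -0.30). Lrp1, the large remnant receptor, fell by 1.08 (SE 0.11, limma adjusted p = 0.00191), opposite to Vldlr. Apoc2, the activator of lipoprotein lipase, fell by 0.80 (SE 0.20), Apoa5 by 0.73 (SE 0.16) and the endothelial lipase Lipg by 0.70 (SE 0.16). The heparan sulfate proteoglycan Sdc1, also a remnant receptor, rose by 0.64 (SE 0.12), though its 4 probe sets ran from -0.09 to 0.64 and those of Lipg from -0.70 to 0.15. Angptl4, an inhibitor of lipoprotein lipase and a PPAR target, read 0.27 (SE 0.28) but -0.39 in PiZ replicate 1 alone, and passed without that array (0.60). The call of Lrp1 held in all 16 alternatives. Calls lost without any one wild-type array were those of Apoc2 (-0.86 to -0.70), Apoa5 (-0.79 to -0.67) and Sdc1 (0.61 to 0.67), and that of Lipg was lost without wild-type replicate 1 or 3 (-0.71 and -0.59) or PiZ replicate 2 (-0.66). Without PiZ replicate 3 those of Apoc2 (-0.73) and Apoa5 (-0.58) were lost, and without PiZ replicate 2 that of Apoc2 (-0.66). The 3′ minus 5′ covariate ended those of Apoc2 (-0.36), Apoa5 (-0.69), Lipg (-0.78) and Sdc1 (0.46), PiZ replicate 1 alone that of Apoc2 (-0.38), and reference gene centring those of Apoa5 (-0.50) and Lipg (-0.47). Angptl4 also passed as higher with array weights (0.62).

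Among the other droplet proteins, 2 of 16 rose and 3 fell (median 0.04). Plin5, the perilipin that ties droplets to mitochondria, rose by 0.69 (SE 0.14, limma adjusted p = 0.0151), from 8.05, 7.79 and 8.18 to 8.57, 8.77 and 8.75. The lysophospholipid acyltransferase Lpcat1 rose by 0.43 (SE 0.11). The droplet hydrolase Ldah fell by 1.75 (SE 0.27), Abhd5 (CGI-58), the coactivator of adipose triglyceride lipase, by 1.03 (SE 0.19) and Hsd17b11 by 0.42 (SE 0.10). The 3 probe sets of Ldah ran from -2.20 to 0.17 and those of Lpcat1 from -0.20 to 0.43. G0s2, an inhibitor of the same lipase, read 11.4, 8.70 and 10.2 in wild-type and 8.77, 7.72 and 9.13 in PiZ, a difference of -1.55 (SE 0.66) that did not pass (limma adjusted p = 0.13). The call of Ldah held in all 16 alternatives. That of Plin5 was lost without wild-type replicate 1 or 2 (0.71 and 0.58) or PiZ replicate 3 (0.66), and that of Abhd5 without the same arrays (-0.99, -0.97 and -0.97). Those of Lpcat1 (0.36 to 0.47) and Hsd17b11 (-0.47 to -0.41) were lost without any one array other than PiZ replicate 1. The 3′ minus 5′ covariate ended those of Plin5 (0.60), Abhd5 (-0.66) and Lpcat1 (0.31), and PiZ replicate 1 alone those of Plin5 (0.56) and Lpcat1 (0.32). The call of Hsd17b11 was lost after cyclic loess (-0.29), a further quantile normalization (-0.30) or reference gene centring (-0.19), and that of Lpcat1 with eBayes trend and robust settings (limma adjusted p = 0.0516).

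Genes of the triglyceride synthesis list passed in both directions. Of 15 measured, 5 rose and 3 fell (median 0.28). The third lipin, Lpin3, rose by 1.21 (SE 0.11, limma adjusted p = 0.00122), as Lpin2 did, but from a dim level. It read 4.51, 4.39 and 4.46 in wild-type and 5.66, 5.57 and 5.75 in PiZ. The lipid phosphatase Plpp1 rose by 0.84 (SE 0.15), the first acyltransferase of the pathway Gpam by 0.55 (SE 0.11) and the last acyltransferase Dgat1 by 0.45 (SE 0.10). Cds2, a listed enzyme of the phospholipid branch rather than of triglyceride synthesis itself, rose by 0.53 (SE 0.12). Dgat2, which does the same step as Dgat1, fell by 0.56 (SE 0.14), the phosphatase Plpp3 fell by 1.53 (SE 0.24) and the lipoprotein assembly protein Mttp by 0.39 (SE 0.11). Cds2 had probe sets from -0.33 to 0.53, and Plpp1 from 0.02 to 0.84. The calls of Lpin3 and Plpp3 held in all alternatives (15 and 16). Without any one wild-type array, or PiZ replicate 3, those of Gpam (0.51 to 0.58), Dgat1 (0.43 to 0.47), Dgat2 (-0.61 to -0.47), Cds2 (0.51 to 0.55) and Mttp (-0.45 to -0.32) were lost, as were those of Cds2 (0.45) and Mttp (-0.39) without PiZ replicate 2. That of Plpp1 was lost without wild-type replicate 2 or 3 (0.83 and 0.79). Those of Dgat2 (-0.43, -0.46 and -0.34) and Mttp (-0.26, -0.26 and -0.16) were lost after cyclic loess, a further quantile normalization and reference gene centring. The 3′ minus 5′ covariate and PiZ replicate 1 alone ended those of Cds2 (0.32 and 0.34), Dgat1 (0.43 and 0.42) and Mttp (-0.35 and -0.34), and eBayes trend and robust settings that of Mttp (limma adjusted p = 0.0628).

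Of 12 measured genes of triglyceride hydrolysis, 0 rose and 4 fell by limma's adjusted threshold (median -0.40). At an unadjusted limma p below 0.05 there were 2 higher and 6 lower, where 2565 and 2345 of all 12393 genes were. The carboxylesterase Ces1d, which releases droplet triglyceride for secretion, fell by 1.63 (SE 0.12, limma adjusted p = 0.000686) and all 3 of its probe sets were lower, from -2.39 to -1.38. Ces1g fell by 1.13 (SE 0.16), the deacetylase Aadac by 0.98 (SE 0.19) and Ces1f by 0.76 (SE 0.12). The carboxylesterases are close relatives in sequence, and probes could be shared. The calls of Ces1d and Ces1g held in all 16 alternatives, and that of Aadac was lost without wild-type replicate 1 or 3 or PiZ replicate 3 (-0.95, -0.97 and -0.89). That of Ces1f was lost with reference gene centring (-0.53). Pnpla2, the adipose triglyceride lipase, read 0.21 (SE 0.18) and -0.05 in PiZ replicate 1 alone.

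**Figure D4:**
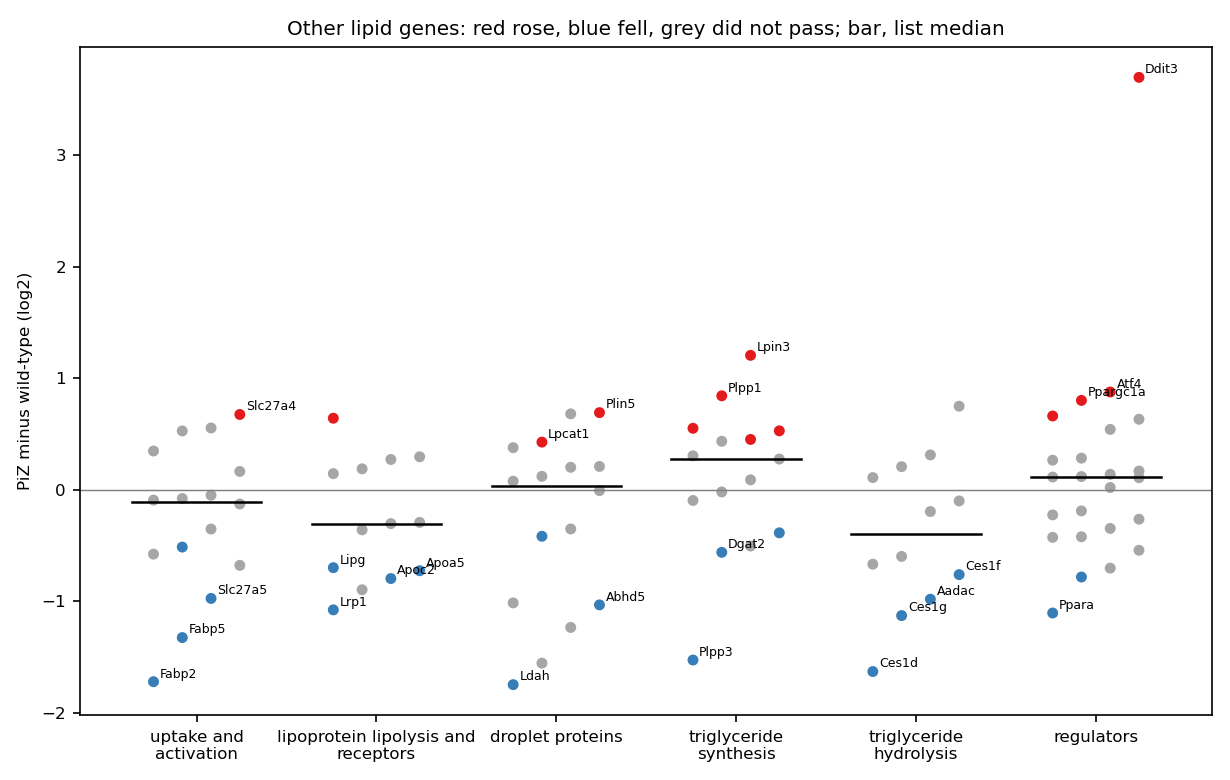
Difference (PiZ minus wild-type, log2) of each measured gene of the 6 further lists, by its brightest probe set; red rose, blue fell, grey did not pass, and the bar is the list's median. The hydrolysis list has its 4 passing genes below 0, and the synthesis list has 5 above and 3 below.

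Of 24 measured regulators of these genes, 4 rose and 2 fell (median 0.11). Ppara, the receptor that drives Cd36, Vldlr, Fabp1 and Plin2 in fasting, fell by 1.10 (SE 0.21, limma adjusted p = 0.0133), from 10.1, 10.2 and 10.6 to 9.02, 9.59 and 8.98. Pparg, the receptor tied to fatty liver, read 6.84, 6.76 and 7.21 in wild-type and 7.04, 7.16 and 7.03 in PiZ, a difference of 0.14 (SE 0.14) that did not pass there or in any of 16 alternatives. Its coactivator Ppargc1a rose by 0.80 (SE 0.23), with 5 probe sets from -0.29 to 0.80. The stress factors Ddit3 (CHOP) and Atf4 rose by 3.70 (SE 0.14) and 0.88 (SE 0.11), Cebpb rose by 0.66 (SE 0.12), and Cebpa fell by 0.78 (SE 0.13). The calls of Ddit3 and Atf4 held in all 16 alternatives. That of Ppara was lost without wild-type replicate 2 or 3 or PiZ replicate 3 (-1.14, -0.953 and -0.997), that of Ppargc1a without any one wild-type array or PiZ replicate 3 (0.59 to 0.90), that of Cebpb without wild-type replicate 2 or 3 (0.60 and 0.65), and that of Cebpa without wild-type replicate 3 (-0.74). The 3′ minus 5′ covariate ended that of Ppargc1a (0.88), and reference gene centring that of Cebpa (-0.56).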

How the data were processed

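Per the submitters' processing notes, the authors used RMA and affy, and they deposited 1 log2 intensity for each probe set and array; no version, chip definition or filter is stated there. RMA usually includes quantile normalization, which removes a change shared by most genes. Lower quartiles of the deposited probe set values were 4.27 to 4.32 in wild-type and 4.35 to 4.46 in PiZ. These values do not show whether that step was applied. That the scale is log2 was read from the range of the values. All 6 value columns matched samples. Of 22690 probe sets, 64 controls were left out; the platform annotation named 1 gene for 20380 of the rest, several for 691 and none for 1555.

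All 22626 probe sets were fitted with limma 3.58.1 in R 4.3.3 (lmFit, eBayes, no covariate, two-sided; Benjamini-Hochberg, threshold 0.05). The labels call the arrays biological replicates. On simulated data for this comparison (22626 probe sets, 200 changed), 81% of changes of 1 and 100% of changes of 2 were recovered, with 9 calls of unchanged probe sets. The simulation gave every array the same spread within a probe set and independent noise. It holds no RNA quality split among the PiZ arrays, so these rates need not apply to the real arrays. Array number limits the precision.

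Members, lists and alternatives were chosen with earlier results of these data known. Named were all member probe sets, up to 4 passing genes of each list by size, and Pparg, Ppara, Angptl4, G0s2, Dgat2 and Pnpla2; the other passing genes (Slc27a2, Sdc1, Hsd17b11, Gpam, Cds2, Dgat1, Mttp, Cebpa, Cebpb) and Fabp4 were added after their values were seen. Figures used Python 3.11.15 and matplotlib 3.10.9. Stellate, muscle and erythroid markers were read too: 1 of 6, 0 of 4 and 0 of 3 measured rose and 0 fell by the adjusted limma threshold, with 1 stellate marker lower at an unadjusted p below 0.05 and 0 others.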

Additional observations from a re-analysis of the deposited data

How the results depend on the processing

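Of 304 alternative values of the 20 member probe sets, 238 kept direction and side of the threshold, 44 lost a call, 18 gained one and 4 turned sign, all in probe sets that had not passed: Lpl 1431056_a_at (0.29 with the 3′ to 5′ covariate, 0.36 in PiZ replicate 1 alone) and Cidea (0.0224 with reference gene centring and 0.0247 without PiZ replicate 1). Of 591 such values of 37 further genes, 4 turned sign: Angptl4 (-0.34 with the covariate, -0.39 in PiZ replicate 1 alone) and Pnpla2 (-0.015 and -0.0453). The causes were not tested.

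Counts over all probe sets (2020 higher, 2311 lower) became 6038 and 4948 with array weights, 1308 and 1504 with the covariate, 550 and 583 at an adjusted p below 0.01, and 1525 lower with 1 probe set per gene, where fewer were tested. Centring on 8 reference genes, 3 of which changed themselves, raised all differences by 0.23, so that 1238 were lower and 68.5% of calls were higher, against 46.6%. Leaving out 1 array gave 598 to 5734 higher and 641 to 4813 lower, the highest without PiZ replicate 1 and the lowest without wild-type replicate 3.

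Member probe sets (10 higher, 1 lower) became 6 higher with the covariate, 4 and 0 at 0.01, 4 higher with 1 probe set per gene (10 tested) and 2 lower with array weights. Cyclic loess, a further quantile normalization and reference gene centring left 0 lower. Leaving out 1 array gave 5 to 13 higher and 0 to 3 lower. The further genes (13 higher, 20 lower) became 27 and 34 with array weights, 8 higher with the covariate, 12 lower with reference gene centring, 3 and 9 at 0.01, and 3 to 25 and 9 to 33 without 1 array.

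The replicate numbers did not pair the arrays: deviations of same-numbered arrays correlated at 0.3, 0.304 and -0.041, and wild-type replicate 3 did not correlate best with its own number. With a replicate block, 2281 and 2908 of all probe sets and 12 and 0 of the members were called: Cidec (adjusted p = 0.0134) and both Lpin1 probe sets (0.0155 and 0.0122) passed by limma, and Fabp1 1417556_at (0.0719) and Lpin2 1460290_at (0.0539) did not. Of the further genes, G0s2 passed (0.0185), and Hsd17b11 (0.0517), Lpcat1 (0.0594) and Mttp (0.078) did not.

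The files hold no detection calls, so dim probe sets (Cidea, Cidec, Mogat1 and 3 of Vldlr, and Lpin3 outside the members) cannot be separated from background.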

Other observations

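The wild-type livers differed among themselves in a small group of lipid genes. Above the 99th percentile of the wild-type standard deviation over all probe sets lay 2 of the 20 member probe sets, both of Lpin1, and 6 of the 96 further genes. Lpin1 was lowest in wild-type replicate 1 and highest in wild-type replicate 2 (9.42 and 10.75 in 1418288_at). The order was opposite for G0s2 (11.39 and 8.70) and for Angptl8, a feeding-induced inhibitor of lipoprotein lipase (10.49 and 8.33). Nr0b2 (SHP), a corepressor induced by bile acids, read 9.85 in wild-type replicate 1 against 7.54 and 7.51 in the other wild-type arrays. The remaining 3 genes were Insig2, Acot1 and Ppargc1b. The standard deviation in PiZ was lower than in wild-type for Lpin1 (0.23 and 0.28 against 0.66 and 0.70), Angptl8 (0.06 against 1.10), Nr0b2 (0.26 against 1.34) and G0s2 (0.73 against 1.35). It was close to it for Acot1 (0.55 against 0.60) and Ppargc1b (0.42 against 0.46), and higher for Insig2 (1.17 against 0.67). These genes were picked for a large wild-type standard deviation, so a smaller one in PiZ is favoured by the choice itself. The comparison therefore cannot show that PiZ livers vary less. The genes were singled out after their values were seen, and no test was run.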
